A study of Mus musculus with 12 samples.

Results

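Translation initiation factors (eIFs) bring the small ribosomal subunit, the initiator tRNA and an mRNA together and set the ribosome at the start codon. They and the proteins that restrain them were compared here in the arcuate nucleus of the hypothalamus (ARC) of wild-type (WT) mice and of mice homozygous for the R299Q mutation in *Prkag2*, the gene of the γ2 subunit of AMPK (Homo). Members were taken by name from the deposited table: gene symbols that begin with Eif and a number from 1 to 6, leaving out the eIF2 kinases (*Eif2ak*) and pseudogenes. This gave 56 genes of 38283. Of these, 51 had a mean of at least 1 FPKM (fragments on a gene scaled by transcript length and by how many fragments were mapped in each library) and were tested, as were 14017 genes in all.

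The mice were C57BL/6 males aged 8 weeks that fed ad libitum, and each of the 5 WT and 7 Homo libraries came from the ARC of 1 mouse, cut by laser from frozen sections 14 µm thick. The RNA was amplified before sequencing. The mutation is a point knock-in present in every cell of the body, so a difference cannot be assigned to a cell type, and the level of *Prkag2* does not check the genotype labels. In dissected tissue, fewer cells of a type and less RNA per cell cannot be told apart.

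The libraries fell into sets by the number of genes above 0. WT 1, WT 2 and Homo 1 to Homo 5 had 15742 to 16467 such genes, and WT 3, WT 4, WT 5, Homo 6 and Homo 7 had 18141 to 18635. The labels name no batch, although they word the titles of Homo 1 to 5 and of Homo 6 and 7 differently, so differences are also given within each set. The ARC neuron markers (7 genes, among them *Agrp*, *Npy* and *Pomc*) were all detected and summed to 1270 to 4479 FPKM in WT and 3359 to 5123 FPKM in Homo, with the lowest sum in WT 3. That library also had the highest sum of the pituitary markers, 113.4 FPKM. WT 5 was at 69.0 FPKM, Homo 7 at 56.5 FPKM and the remaining libraries at 0.991 to 12.2 FPKM.

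Initiation begins when eIF2, loaded with GTP and the initiator tRNA, joins the small subunit together with eIF1, eIF1A, eIF3 and eIF5. The cap-binding factor eIF4E, the scaffold eIF4G and the helicase eIF4A prepare the mRNA. eIF2B recharges eIF2 with GTP and is blocked when eIF2 is phosphorylated, whereas the 4E-binding proteins (4E-BPs) hold eIF4E away from eIF4G unless mTOR complex 1 phosphorylates them. AMPK opposes mTOR complex 1. The activity of all of these is set largely by phosphorylation, which RNA levels do not show.

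Many mRNAs of the translation machinery begin with a run of pyrimidines, the 5′ terminal oligopyrimidine feature through which mTOR complex 1 controls their translation. The stretches from 40 bases before to 15 bases from the annotated RefSeq start (GRCm38.p6) were therefore examined for a run of at least 5 C or T that begins with C within 5 bases of the start. RefSeq promoter entries were found for 43 of the 56 members. Of these, 12 had such a run (27.9%), among them 3 of the 10 eIF3 genes with an entry. *Eif3e*, *Eif3h*, *Eif3i* and *Eif3j2* had no entry. Such a run was found in 29 of 62 cytosolic ribosomal protein genes (46.8%) and 3767 of 17492 protein-coding genes (21.5%). The 12 included *Eif2c4* and *Eif2c5*, which are members by name alone, as set out below. The runs of at least 8 bases among eIF3, eIF2 and eIF2B genes and the starts of the 3 members whose levels in Homo lay above WT with an unadjusted p under 0.05, *Eif3b*, *Eif3k* and *Eif2s2*, are given here. Capitals mark the run, and *Eif3k* and *Eif2s2* had none at the annotated start. The rule reads annotated starts only, so its absence does not show that an mRNA in the ARC lacks the feature.
Eif3f: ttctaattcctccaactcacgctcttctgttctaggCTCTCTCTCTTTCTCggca
Eif3l: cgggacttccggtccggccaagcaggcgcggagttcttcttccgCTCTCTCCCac
Eif3b: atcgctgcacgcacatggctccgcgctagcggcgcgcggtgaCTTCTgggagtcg
Eif3k: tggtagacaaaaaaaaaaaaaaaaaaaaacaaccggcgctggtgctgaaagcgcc
Eif2s3x: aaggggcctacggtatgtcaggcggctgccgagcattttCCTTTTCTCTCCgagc
Eif2s3y: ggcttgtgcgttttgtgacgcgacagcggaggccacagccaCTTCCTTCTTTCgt
Eif2s2: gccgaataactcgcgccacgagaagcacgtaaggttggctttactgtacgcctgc
Eif2b2: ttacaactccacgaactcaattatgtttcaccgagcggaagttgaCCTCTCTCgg
Eif2b5: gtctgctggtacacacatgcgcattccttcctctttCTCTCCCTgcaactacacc

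These stretches lie at chr7:108934375-108934429 on the plus strand (*Eif3f*), chr15:79075183-79075237 plus (*Eif3l*), chr5:140419265-140419319 plus (*Eif3b*) and chr7:28981874-28981928 minus (*Eif3k*). Those of the eIF2 genes lie at chrX:94212637-94212691 minus (*Eif2s3x*), chrY:1010555-1010609 plus (*Eif2s3y*), chr2:154892892-154892946 minus (*Eif2s2*), chr12:85219441-85219495 plus (*Eif2b2*, of eIF2B) and chr16:20498777-20498831 plus (*Eif2b5*, of eIF2B). The run of *Eif3f* was 15 bases long and those of *Eif2s3x* and *Eif2s3y* 12 each, although the sequences of the X and Y copies differ around it. *Eif3l* had a run of 9 bases, *Eif2b2* and *Eif2b5* of 8 each and *Eif3b* of 5. The GENCODE gene model of *Eif3b* begins downstream of its run. In the window from 250 bases before to 50 bases after the start, the letters CCGGAA, the core that ETS factors recognize, occurred on either strand in 21 of 43 members (48.8%) and in 3656 of 17492 protein-coding genes (20.9%). The eIF3 genes with it were *Eif3c*, *Eif3d*, *Eif3f*, *Eif3g*, *Eif3l* and *Eif3m*. A match of letters is a description of the window and shows neither binding nor use of the start in the ARC.

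The initiation factor mRNAs were among the more abundant messages of the ARC. The median of their mean levels was 25.1 FPKM, against 7.57 FPKM over all genes tested, and 38 of the 51 were at or above 10 FPKM. The helicase *Eif4a2* was highest at 274.9 FPKM, followed by *Eif4g2* (255.0 FPKM), an eIF4G relative that lacks the eIF4E-binding site. Also above 100 FPKM were *Eif3i*, *Eif3k* and *Eif3h* of eIF3, *Eif1*, which guards start codon choice, and *Eif5a*, which helps ribosomes through difficult peptide bonds. The lowest tested member was *Eif4ebp1* at 1.90 FPKM.

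The remaining 5 members were not tested. *Eif4ebp3* was above 0 in Homo 3 only, at 4.96 FPKM, and *Eif3j2* in WT 1 only, at 0.0744 FPKM. *Eif4e1b*, an eIF4E relative of the germ line, was above 0 in 4 libraries and reached 0.900 FPKM. *Eif2c4* averaged 0.950 FPKM, and *Eif2c5*, a long noncoding RNA, was above 0 in Homo 3 only, at 0.0978 FPKM. The names *Eif2c1* to *Eif2c4* are older symbols of *Ago1* to *Ago4*, which encode Argonaute proteins of the microRNA pathway and not initiation factors. They are members by name alone and are counted among the members. Over all libraries, the counts by unadjusted p and by direction are also given without them. Other counts over all members include them.

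Between the genotypes, no member passed the test. With limma on log2(FPKM + 1) and Benjamini-Hochberg adjustment over all 14017 genes, 0 of 51 members and 1 gene overall (0.00713%) had an adjusted p under 0.05, and the smallest adjusted p among the members was 0.899. At an unadjusted p under 0.05 there were 4 of 51 members (7.84%), against 5.55% of all genes tested. Higher in Homo were *Eif3b*, *Eif3k* and *Eif2s2*, 3 of 51 (5.88%, background 3.05%), and lower was *Eif2c2*, 1 of 51 (1.96%, background 2.5%). Without the *Eif2c* genes the counts were 3 higher and 0 lower of 48. The genotypes overlapped in all 51 members, and 0.221% of all genes showed no overlap. The count of 4 became 2 without Homo 1, Homo 4, Homo 5 or WT 3, each left out alone, to 1 without WT 2, and to 2 with the library set as a term. All differences below are Homo minus WT on the log2(FPKM + 1) scale, which understates the change of low genes.

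**Figure D1:**
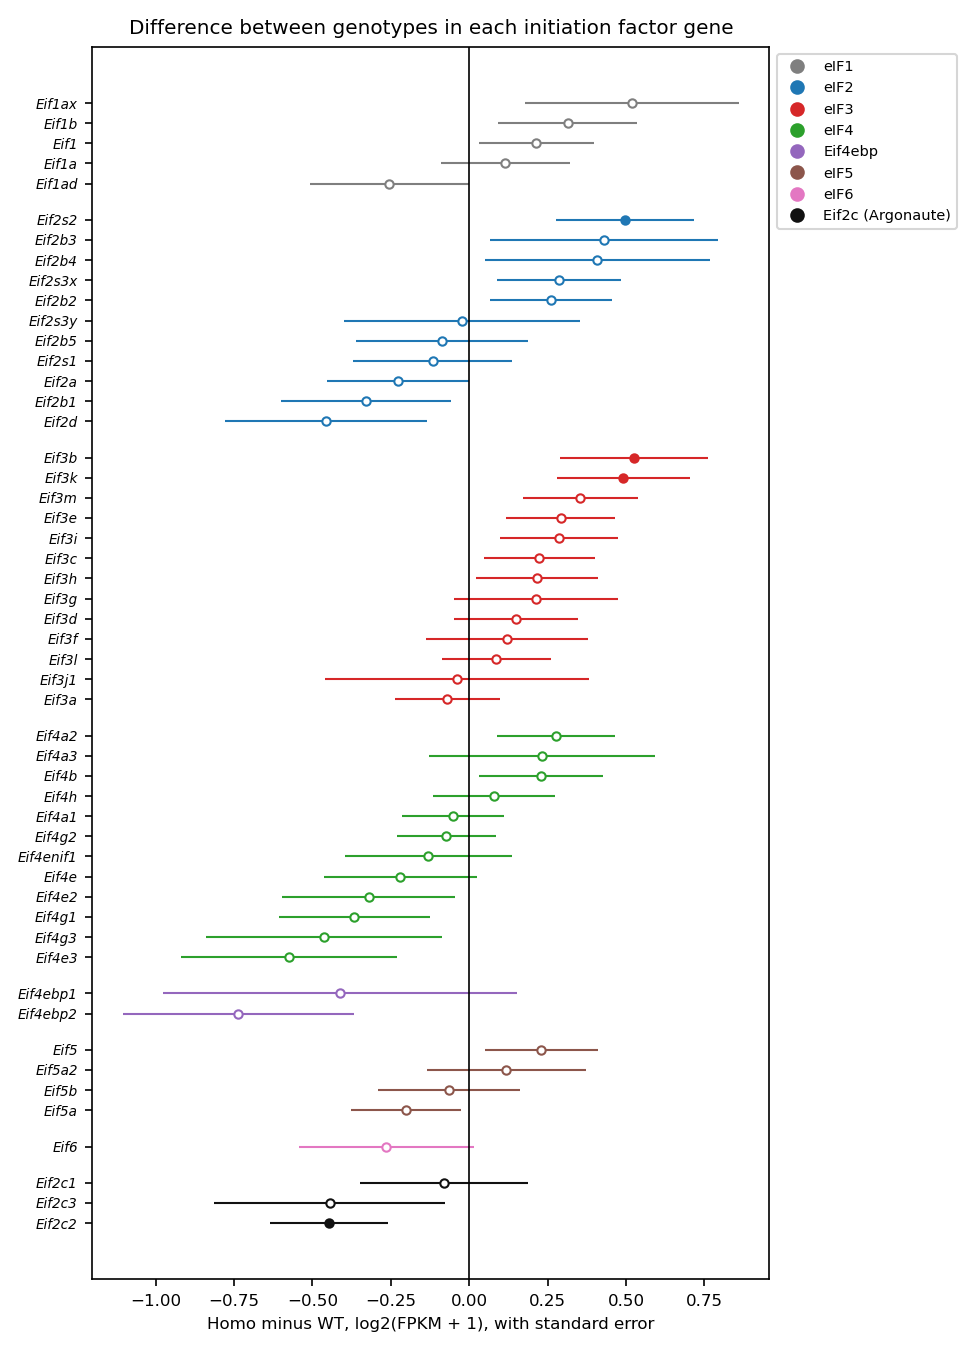
Difference between Homo (n = 7) and WT (n = 5) for each of the 51 tested members, as Homo minus WT on the log2(FPKM + 1) scale, with the standard error as bars, grouped by family. Filled points mark the 4 genes with an unadjusted limma p under 0.05, and 11 of 13 eIF3 genes lie to the right of 0, whereas the eIF4E, eIF4G and *Eif4ebp* genes lie to the left.

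By family the differences were small and of unlike direction. Across all genes tested the median difference was -0.0062, with 49.3% of genes higher in Homo, and over the 51 members it was 0.08, with 26 higher and 25 lower. Without the *Eif2c* genes it was 0.10, with 26 of 48 higher and 22 lower. eIF3 had a median of 0.22 with 11 of 13 genes higher, and 12 of 13 after quantile normalization. The eIF2 family (eIF2, eIF2A, eIF2D and eIF2B) had a median of -0.02 with 5 of 11 higher, the eIF4 family -0.10 with 4 of 12 higher, and the *Eif4ebp* genes -0.57 with 0 of 2 higher. The eIF1 genes had a median of 0.21 (4 of 5 higher) and the eIF5 genes of 0.03 (2 of 4 higher). Under quantile normalization or upper-quartile scaling none of these family medians changed sign.

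eIF3, the largest factor, holds the initiation complex on the small subunit and is built of a core of PCI and MPN domain subunits with *Eif3b*, *Eif3g* and *Eif3i* as a separate module. Of its 13 tested genes, 2 had an unadjusted p under 0.05, both higher in Homo, and none an adjusted one. Over all genes tested, 3.05% were higher in Homo at that unadjusted p. The differences ran from -0.07 in *Eif3a*, the scaffold subunit, to 0.53 in *Eif3b*. Mean levels of the subunits differed by up to 34.2 times per length, from 3.81 FPKM for *Eif3j1*, a loosely attached subunit, to 130.3 FPKM for *Eif3i*.

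*Eif3k* (chr7:28971372-28981864, minus strand), one of the smallest subunits, was at 132.6, 98.3, 66.3, 131.8 and 83.9 FPKM in WT 1 to WT 5, while the Homo libraries were at 95.3 to 185.0 FPKM with a median of 141.6 FPKM. The WT median was exceeded in all Homo libraries but Homo 2, and the groups overlapped. The means were 102.6 ± 29.3 (SD, n = 5) and 142.6 ± 30.4 FPKM (SD, n = 7), a difference of 0.49 (SE 0.212, unadjusted limma p = 0.0353, adjusted p = 0.899, exact two-sided permutation p = 0.0467). Permuting within the library sets gave an exact p of 0.0952. With 1 library left out the unadjusted limma p ran from 0.0131 (without Homo 2) to 0.105 (without WT 3, difference 0.35). Without Homo 7 it was not under 0.05 either, so none of the members higher in Homo kept such a p there.

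*Eif3b* (chr5:140419328-140443360, plus strand), a subunit with an RNA recognition motif, was at 13.2, 15.1, 4.90, 8.75 and 10.2 FPKM in WT 1 to WT 5. In Homo it ranged from 12.4 to 19.2 FPKM with a median of 14.1 FPKM, so that the WT median was exceeded in 7 of 7 Homo libraries while WT 1 and WT 2 lay within the Homo range. The means were 10.4 ± 3.96 and 14.7 ± 2.17 FPKM, a difference of 0.53 (SE 0.236, unadjusted limma p = 0.0419, adjusted p = 0.899, exact permutation p = 0.0215, within sets p = 0.105). The difference was 0.05 in the set with fewer genes and 0.82 in the set with more. Without WT 3 it was 0.31 and its unadjusted limma p was no longer under 0.05. Leaving out Homo 7 alone also took that p to 0.05 or above.

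*Eif3i*, the most abundant subunit, was at 142.5, 116.0, 72.9, 133.2 and 117.1 FPKM in WT 1 to WT 5, while the Homo libraries were at 100.2 to 166.0 FPKM, median 146.1 FPKM. WT 3 was the lowest of the 12 and the other WT libraries lay within the Homo range. Its difference was 0.29 (SE 0.187, adjusted p = 0.915, exact permutation p = 0.131), and 0.13 without WT 3. For *Eif3m* and *Eif3e*, named after their values were seen, the differences were 0.35 (exact permutation p = 0.053) and 0.29 (exact permutation p = 0.0429), the latter with 7 of 7 Homo libraries above the WT median. Without WT 3 they were 0.27 and 0.14. A pseudogene row, *Eif3s6-ps2*, named for an older symbol of *Eif3e*, was listed at 0 to 45.4 FPKM and may share reads with it, so single values of *Eif3e* are uncertain. The exons of *Eif3d* and *Eif3j1* overlap genes of the opposite strand (*Gm17638* and *Spg11*), and whether strand was used in counting is not given in the sources used here.

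A single library weighed on the eIF3 result. The median log2 level over the 13 genes was 5.16, 5.15, 4.89, 5.52 and 5.5 in WT 1 to WT 5 (mean 5.24 ± 0.27 SD) and 5.31 to 5.69 with a median of 5.48 in Homo (5.5 ± 0.14). WT 3 was the lowest of all 12 libraries in 10 of 13 eIF3 genes (76.9%), against 14.8% of all genes tested and 15 of 51 members (29.4%). Without WT 3 the eIF3 median difference was 0.06 with 9 of 13 genes higher, beside a median of -0.05 and 43.7% higher over all genes. WT 3 is also the library with the lowest ARC neuron and the highest pituitary marker sums. The pituitary sums were next highest in WT 5 and Homo 7, whose eIF3 medians were 5.5 and 5.66. The part of the dissection in the result was not tested.

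**Figure D2:**
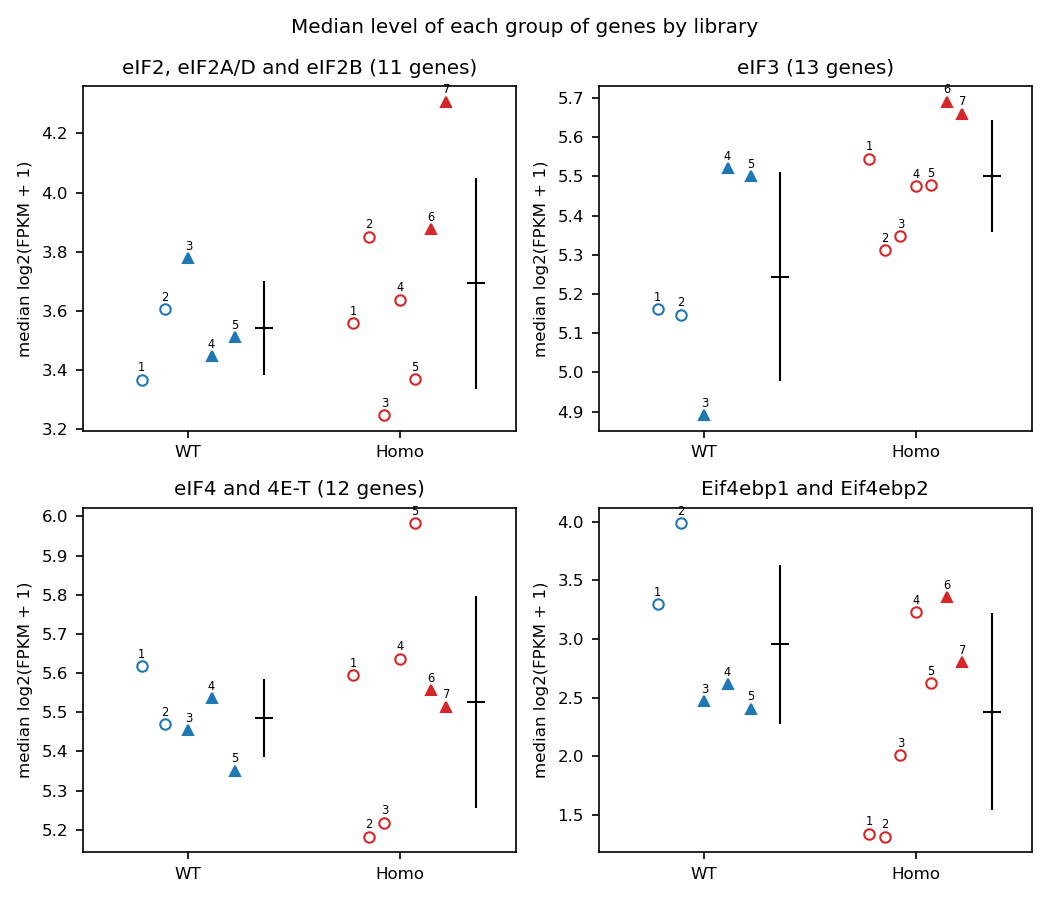
Median log2(FPKM + 1) of the tested genes of each family in each library, with replicate numbers beside the points. Blue is WT and red Homo, open circles are the libraries with fewer genes above 0 and filled triangles those with more, and the bars at the right of each group give the mean and SD. In eIF3, WT 3 is lowest at 4.89, and in the *Eif4ebp* panel Homo 1 and Homo 2 are lowest at 1.34 and 1.31.

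eIF2 carries the initiator tRNA, and its α subunit (*Eif2s1*) is the site at which the stress kinases stop initiation. *Eif2s2* (chr2:154871410-154892935, minus strand), the β subunit, was at 7.23, 10.9, 13, 14.5 and 13.6 FPKM in WT 1 to WT 5, while the Homo libraries were at 11.8 to 22.3 FPKM, median 16.9 FPKM. Homo 3 and Homo 4 lay among the WT libraries and the other 5 above all of them. The means were 11.9 ± 2.91 and 17.1 ± 3.91 FPKM, a difference of 0.50 (SE 0.219, unadjusted limma p = 0.039, adjusted p = 0.899, exact permutation p = 0.0316). It was 0.73 in the set with fewer genes and 0.55 in the set with more, and permuting within the sets gave an exact p of 0.0048, the smallest that this design allows. Without WT 1 the difference was 0.34 and its unadjusted limma p was no longer under 0.05. That p was not under 0.05 without Homo 7 either.

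The α subunit *Eif2s1* was at 9.32, 7.91, 8.06, 6.72 and 10.3 FPKM in WT 1 to WT 5, while the Homo libraries were at 3.79 to 11.5 FPKM, median 8.80 FPKM, a difference of -0.12 (SE 0.253, adjusted p = 0.977, exact permutation p = 0.649). The WT libraries all lay inside the Homo range. The γ subunit has a copy on each sex chromosome, whose reads are hard to separate. *Eif2s3x* was at 16.3, 17.8, 13.8, 15.5 and 20.6 FPKM in WT and at 12.7 to 28.1 FPKM, median 22.1 FPKM, in Homo, a difference of 0.29 (SE 0.197, adjusted p = 0.915, exact permutation p = 0.125). *Eif2s3y* was at 14.6, 13.5, 12.7, 9.91 and 10.4 FPKM in WT and spread over 3.79 to 24.7 FPKM, median 10.7 FPKM, in Homo, a difference of -0.02 (SE 0.376, adjusted p = 0.995, exact permutation p = 0.962). The ratio of the X to the Y copy within a library ran from 1.08 to 1.98 in WT and from 0.763 to 5.99 in Homo.

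Of the 5 subunits of eIF2B, 3 were higher and 2 lower in Homo, with a median difference of 0.26 and no unadjusted p under 0.05. *Eif2b2*, its most abundant subunit, was at 26.0, 23.1, 18.5, 35.4 and 21.2 FPKM in WT 1 to WT 5, while the Homo libraries were at 20.2 to 34.1 FPKM, median 31.9 FPKM. WT 4 was the highest of all 12, and the WT median was exceeded in 6 of 7 Homo libraries. The difference was 0.26 (SE 0.195, adjusted p = 0.915, exact permutation p = 0.159). *Eif2a* and *Eif2d*, which can bring initiator tRNA to the ribosome without eIF2, both had lower means in Homo. *Eif2a* was at 18.9, 22.6, 24.8, 28.1 and 45.3 FPKM in WT and at 15 to 27.2 FPKM, median 25.4 FPKM, in Homo, and its difference of -0.23 (SE 0.227, adjusted p = 0.923, exact permutation p = 0.354) was -0.04 without WT 5.

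The 3 tested eIF4E genes and the 3 eIF4G genes, grouped by name, had lower means in Homo, with median differences of -0.32 and -0.37. Of these 6 genes, 0 had an unadjusted p under 0.05. They are not all parts of the same complex, as *Eif4g2* lacks the eIF4E-binding site. *Eif4e*, the cap-binding protein, was at 21, 14.4, 21.6, 20.5 and 31.6 FPKM in WT 1 to WT 5, while the Homo libraries were at 13.3 to 33.5 FPKM, median 15.6 FPKM. The highest library of each genotype, WT 5 and Homo 7, belonged to the set with more genes. The difference was -0.22 (SE 0.244, adjusted p = 0.923, exact permutation p = 0.391), at -0.18 within the set with fewer genes and 0.18 within the other. *Eif4g2* was at 234.3, 277.0, 244.0, 252.1 and 297.0 FPKM in WT and at 183.4 to 326.2 FPKM, median 264.1 FPKM, in Homo, a difference of -0.07 (SE 0.158, adjusted p = 0.977, exact permutation p = 0.601).

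Of the eIF4A, eIF4B and eIF4H genes, 4 of 5 had higher means in Homo. *Eif4a2*, the helicase form abundant in brain, was at 230.7, 213.4, 254.5, 180.0 and 351.1 FPKM in WT 1 to WT 5. In Homo it was at 232.5 to 388.8 FPKM with a median of 289.6 FPKM, and 7 of 7 libraries lay above the WT median, although WT 5 exceeded 5 of them. The difference was 0.28 (SE 0.189, adjusted p = 0.915, exact permutation p = 0.155). The ratio of *Eif4a2* to *Eif4a1*, both of which hold small nucleolar RNA genes within their span, lay between 4.11 and 9.58 in WT (median 5.28) and between 4.40 and 11.7 in Homo (median 6.68). *Eif4b*, which stimulates the helicase, was at 60.0, 36.3, 46.2, 50.7 and 76.8 FPKM in WT and at 43.2 to 70.3 FPKM, median 66.9 FPKM, in Homo, a difference of 0.23 (SE 0.198, adjusted p = 0.919, exact permutation p = 0.26). The median over the eIF4 family in each library was 5.49 ± 0.10 in WT and 5.53 ± 0.27 in Homo on the log2 scale. The sign of that difference was opposite to the median of the gene differences. The same held in the eIF2 family (3.54 ± 0.16 and 3.69 ± 0.36) and over the 51 members (4.74 ± 0.21 and 4.72 ± 0.28).

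The 4E-BPs restrain cap-dependent initiation, and *Eif4ebp2* is the form best known from the brain. *Eif4ebp2* (chr10:61428491-61452661, minus strand) was at 26.3, 25.2, 16.4, 15.9 and 27.0 FPKM in WT 1 to WT 5. The Homo libraries ran from 5.16 FPKM in Homo 2 and 5.39 FPKM in Homo 1 through a median of 15.7 FPKM to 27.5 FPKM in Homo 6. The genotypes overlapped, and Homo 1, Homo 2, Homo 3 and Homo 4 lay below every WT library. The means were 22.2 ± 5.57 and 14.5 ± 8.13 FPKM, a difference of -0.74 (SE 0.368, unadjusted limma p = 0.0643, adjusted p = 0.899, exact permutation p = 0.106). It was the widest difference of the 51 members and did not pass the test.

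The difference in *Eif4ebp2* was unequal between the sets, at -1.33 where fewer genes were above 0 and 0.30 where more were. The genotype by set term had an unadjusted limma p of 0.0248 and did not pass adjustment, beside an exact permutation p within sets of 0.19. *Eif4ebp1* was at 2.53, 8.59, 0.766, 1.22 and 0 FPKM in WT 1 to WT 5, while the Homo libraries were at 0 to 4.25 FPKM, median 1.15 FPKM, with Homo 1 and Homo 2 at 0. Its difference was -0.41 (SE 0.563, adjusted p = 0.943, exact permutation p = 0.521), and it was 0.05 without WT 2. The ratio of *Eif4ebp2* to *Eif4e* within a library lay between 0.759 and 1.76 in WT (median 0.855) and between 0.313 and 1.23 in Homo (median 0.818), so repressor and cap-binding mRNAs overlapped in proportion too. *Eif4enif1*, which encodes the eIF4E transporter 4E-T, was at 43.8, 34.8, 55.4, 47.1 and 52.8 FPKM in WT and at 26.6 to 78.7 FPKM, median 37.6 FPKM, in Homo, a difference of -0.13 (SE 0.266, adjusted p = 0.973, exact permutation p = 0.646).

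**Figure D3:**
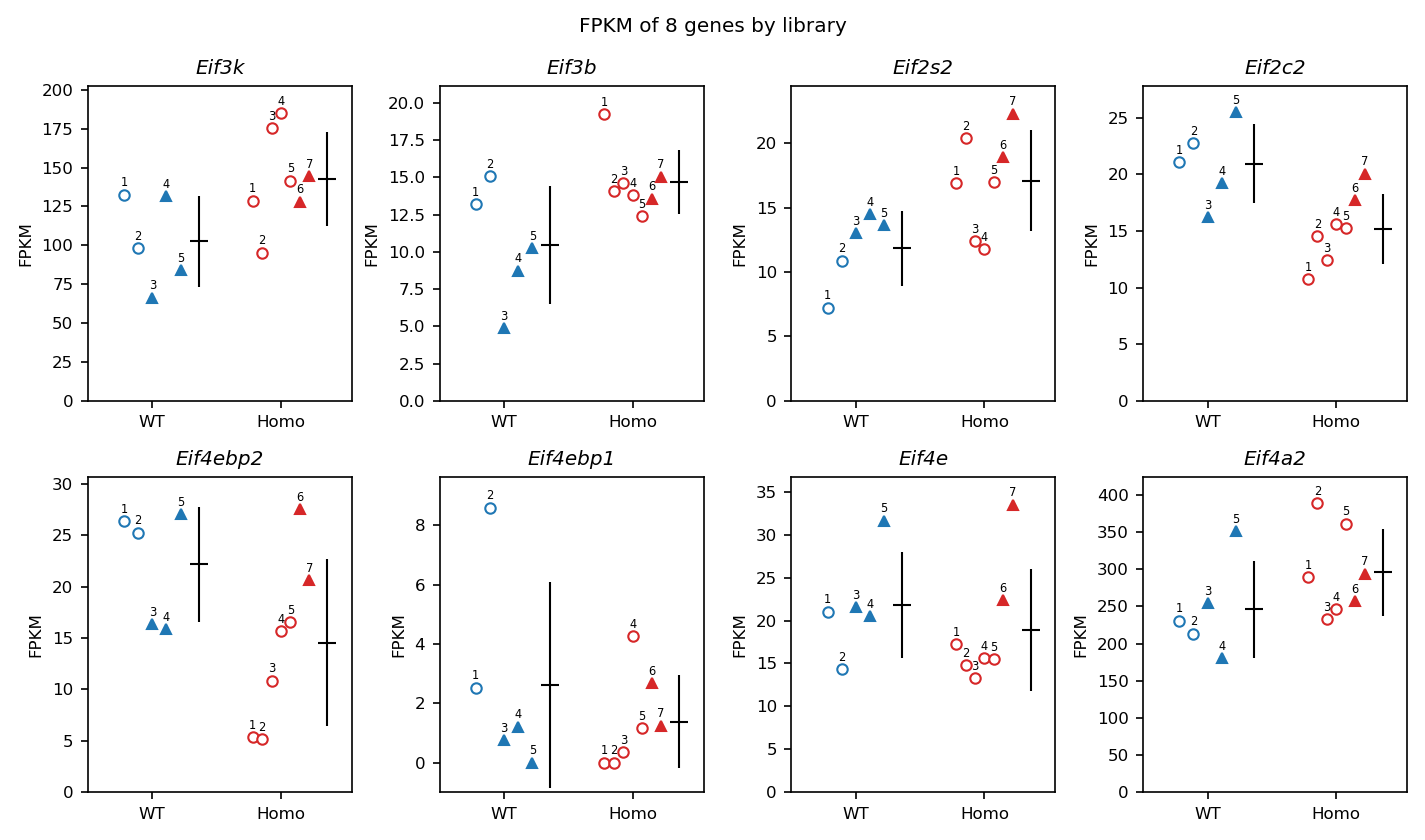
FPKM of 8 members in each library, on linear axes, with replicate numbers beside the points. Blue is WT (n = 5) and red Homo (n = 7), open circles are the libraries with fewer genes above 0, filled triangles those with more, and bars give the mean and SD. *Eif3b* is above the WT median in 7 of 7 Homo libraries, *Eif2c2* is below it in 7 of 7, and *Eif4ebp2* spreads from 5.16 to 27.5 FPKM in Homo.

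Within the sets the families parted. In the libraries with fewer genes (2 WT, 5 Homo) the median difference of the members was -0.13, with 39.2% higher, beside -0.08 and 40.1% over all genes. In those with more (3 WT, 2 Homo) it was 0.30, with 76.5% higher, beside 0.13 and 64.6%. eIF3 went from 0.05 (8 of 13 higher) to 0.52 (13 of 13). The set with more genes holds WT 3, with an eIF3 median log2 level of 4.89. That level was 5.52 in WT 4, 5.5 in WT 5, 5.69 in Homo 6 and 5.66 in Homo 7. The *Eif4ebp* genes went from -1.54 to 0.58. Only 2 such genes were tested, and *Eif4ebp1*, at a mean of 1.90 FPKM, was at 0 in WT 5, Homo 1 and Homo 2. The difference between sets in the genotype effect had an unadjusted p under 0.05 in 8 of 51 members (15.7%) and in 5.18% of all genes, and in 0 members after adjustment. These were *Eif1b*, *Eif1ax*, *Eif2s3y*, *Eif3f*, *Eif3g*, *Eif4g3*, *Eif4ebp1* and *Eif4ebp2*. Only *Eif1ax* among them was higher in Homo in the set with fewer genes (0.93 against -0.39), whereas *Eif4g3*, a scaffold, was at -1.34 against 0.41. With 2 WT and 2 Homo libraries as the smaller arms, each of these values rests on few mice.

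**Figure D4:**
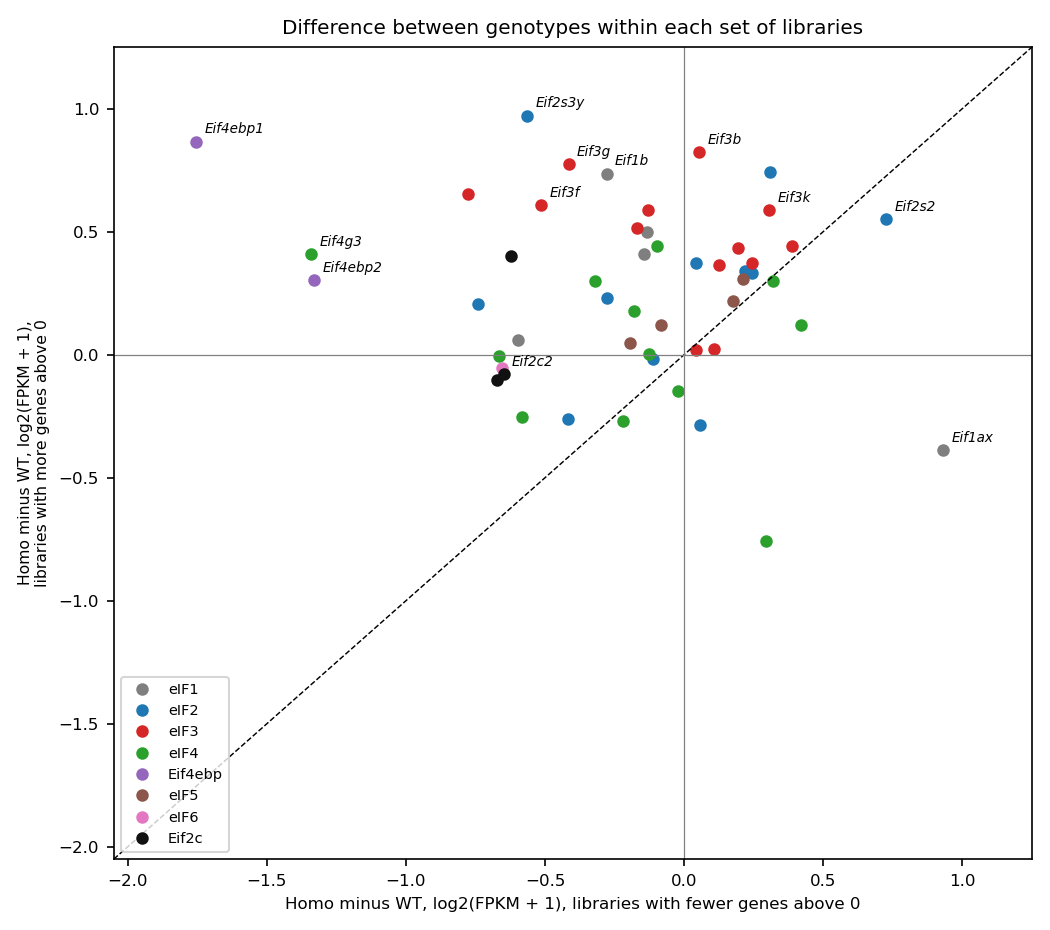
Homo minus WT on the log2(FPKM + 1) scale in the libraries with fewer genes above 0 (horizontal, 2 WT and 5 Homo) and in those with more (vertical, 3 WT and 2 Homo) for the 51 tested members. The dashed line marks equal differences, and named genes have an unadjusted p under 0.05 for the genotype or for the difference between sets. *Eif2s2* lies near the line at 0.73 and 0.55, and *Eif4ebp1*, *Eif4ebp2* and *Eif4g3* lie far to its upper left.

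Of the remaining factors, *Eif1* was at 113.9, 143.8, 80.7, 100.4 and 84.1 FPKM in WT 1 to WT 5, while the Homo libraries were at 93.8 to 144.2 FPKM, median 115.4 FPKM, a difference of 0.21 (SE 0.185, adjusted p = 0.919, exact permutation p = 0.235). *Eif5*, which makes eIF2 hydrolyse its GTP, was at 42.1, 43.2, 34.4, 42.1 and 56.5 FPKM in WT and at 33.9 to 62.0 FPKM, median 50.9 FPKM, in Homo, a difference of 0.23 (SE 0.182, adjusted p = 0.916, exact permutation p = 0.182). Both overlapped widely between the genotypes. *Eif5a* was at 95.9, 119.4, 123.9, 111.5 and 147.8 FPKM in WT and at 81.8 to 141.0 FPKM, median 105.5 FPKM, in Homo, a difference of -0.20 (SE 0.175, adjusted p = 0.919, exact permutation p = 0.217). *Eif6*, which keeps the large ribosomal subunit from joining too early, was at 120.2, 127.7, 56.8, 94.0 and 83.0 FPKM in WT and at 49.3 to 135.6 FPKM, median 71.9 FPKM, in Homo, a difference of -0.26 (SE 0.279, adjusted p = 0.923, exact permutation p = 0.404).

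*Eif2c2*, the gene of Argonaute 2 (chr15:73095844-73184935, minus strand), was at 21.1, 22.8, 16.2, 19.2 and 25.5 FPKM in WT 1 to WT 5, while the Homo libraries were at 10.8 to 20.1 FPKM, median 15.2 FPKM. All 7 Homo libraries lay below the WT median, and Homo 6 and Homo 7 lay within the WT range. The means were 21 ± 3.51 and 15.2 ± 3.11 FPKM, a difference of -0.45 (SE 0.188, unadjusted limma p = 0.0319, adjusted p = 0.899, exact permutation p = 0.0177, within sets p = 0.0381). It was -0.65 in the set with fewer genes and -0.08 in the set with more. Without Homo 1, WT 1, WT 2 or WT 5, each left out alone, it was -0.37 to -0.44 and its unadjusted limma p was no longer under 0.05. A second row of that name, not a member, was at 1.05 to 11.5 FPKM and differed by -0.12 (exact permutation p = 0.793).

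The surrounding pathway was examined in 61 genes, of which 58 were tested, 33 being higher and 25 lower in Homo with a median difference of 0.03. None had an adjusted p under 0.05, and 2 of the 58 had an unadjusted p under 0.05, 1 in each direction, against 5.55% of all genes tested. *Eef1b2*, an exchange factor of elongation, was at 202.3, 209.2, 127.0, 217.7 and 151.9 FPKM in WT 1 to WT 5, while the Homo libraries were at 212.5 to 323.0 FPKM, median 257.1 FPKM, so that only Homo 1 lay within the WT range. Its difference was 0.56 (SE 0.178, unadjusted limma p = 0.007, adjusted p = 0.783, exact permutation p = 0.004). *Pabpc1*, the poly(A)-binding protein that joins the mRNA tail to eIF4G, was at 53.9, 60.1, 75, 80.1 and 79.4 FPKM in WT and at 37.5 to 72.7 FPKM, median 50.9 FPKM, in Homo, a difference of -0.41 (SE 0.19, unadjusted limma p = 0.048, adjusted p = 0.899, exact permutation p = 0.044). With the library set as a term the *Pabpc1* difference was -0.25 and no longer had an unadjusted limma p under 0.05, whereas that of *Eef1b2* was 0.51 and still had. *Pabpc1* was itself 0.50 higher in the set with more genes than in the other.

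By list, 8 of 9 elongation factors were higher in Homo (median 0.21), as were 7 of 10 eIF2 kinase and phosphatase genes (0.18) and 8 of 11 tested targets of the integrated stress response (0.07). WT 3 was the lowest library in 6 of the 9 elongation factors. Of the eIF4 kinases and repressors 6 of 14 were higher (-0.03), as were 2 of 7 genes of the poly(A)-binding protein and its partners (-0.04) and 2 of 7 release and recycling factors (-0.15). The smallest p in the lists without a gene named above were those of *Eif2ak4*, the amino acid sensing kinase GCN2 (-0.55, exact permutation p = 0.101), *Gigyf2*, a partner of the repressor 4EHP (-0.47, exact permutation p = 0.129), *Ddit4*, an inhibitor of mTOR complex 1 (0.52, exact permutation p = 0.12), and *Etf1*, the release factor eRF1 (-1.86, exact permutation p = 0.162). *Etf1* was at 188.4 to 451.2 FPKM in WT 1, WT 2, WT 4 and Homo 1 and at 8.07 to 16.2 FPKM in the other 8 libraries, which cut across genotype and library set. The microglial markers summed to 45.1 to 76.8 FPKM in WT and 61.4 to 110.2 FPKM in Homo, and the general neuronal ones to 603.7 to 824.4 and 595.9 to 907.1 FPKM, and their part in these differences was not tested.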

How the data were processed

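The authors deposited 1 table of FPKM values, made from amplified RNA of laser-captured ARC. Per the labels' processing notes, TopHat2 2.0.8, Cufflinks 2.2.1 and GRCm38 were used. Counts were not used here, so depth is unknown. The lowest 1% of the values above 0 lay below 0.0295 to 0.0927 FPKM by library. FPKM summed to 1.33e+07 to 2.12e+07, and the 10 highest genes held 95.9% to 98.1% of each sum. Both were highest in WT 3. Its upper quartile over the genes tested, 15.0 FPKM, was the lowest but for Homo 3 (14.8 FPKM). All 12 columns were matched to mice by name, and 0 were left over. Values were taken as log2(FPKM + 1), and 14017 genes with a mean of at least 1 FPKM were fitted by genotype alone with limma (version 3.58.1, R 4.3.3), using eBayes with a trend and robust variances and Benjamini-Hochberg adjustment. Two-sided exact permutation used all 792 assignments of the labels (smallest possible p 0.0013), or 210 within library sets. The script was tested on simulated data. Replicates are separate mice.

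The members and lists were chosen with earlier results of these data known. Of 65 *Eif* rows, 4 *Eif2ak* rows, 4 pseudogene rows and 1 second row of a repeated name were left out. Compared in full were members with an unadjusted p under 0.05, the most abundant of each group, the tested *Eif4ebp* genes and the eIF2 subunits. From each pathway list, genes with an unadjusted p under 0.05 or the smallest p were named. Gene positions are from GENCODE M21 (GRCm38), which held all 56 identifiers, and start sequences from RefSeq (GRCm38.p6). Marker lists for astrocytes, oligodendrocytes, endothelium, ependyma and blood were also summed. Astrocyte markers summed to 261.0 to 437.7 FPKM in WT and 208.6 to 375.4 FPKM in Homo. Oligodendrocyte markers summed to 88.8 to 550.0 and 153.2 to 402.6 FPKM, endothelial ones to 14.3 to 19.5 and 12.2 to 29.5 FPKM, and ependymal ones to 6.26 to 24.2 and 3.34 to 23.8 FPKM. Of 5 blood genes 3 were in the table and summed to 10.8 to 186.1 and 5.03 to 103.2 FPKM. Alternatives were another pseudocount (0.1), other filters (mean of at least 5 FPKM, or none), quantile and upper-quartile scaling, no trend, the library set as a term, each set alone, a replicate block and each library left out.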

Additional observations from a re-analysis of the deposited data

Results flagged for a closer look

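In 5 of 102 groups of libraries examined (51 genes in each genotype), the highest or lowest library stood apart from the others of its genotype. The rule was Dixon's criterion at 95% on log2(FPKM + 1), and the values below are in FPKM. Chance gives about 1 in 20, or 5.1 of 102. *Eif2c3*, the gene of Argonaute 3, was low in Homo 3 at 2.31 FPKM, with the next Homo library at 7.48 FPKM. *Eif2b3*, a subunit of the eIF2 exchange factor, was low in Homo 2 at 1.47 FPKM, with the next at 4.84 FPKM. *Eif3e* was high in Homo 7 at 69.9 FPKM, with the next at 61.5 FPKM. *Eif5b*, the factor that joins the ribosomal subunits, and *Eif5a2* were both high in WT 5, at 9.75 and 8.19 FPKM against 7.40 and 4.50 FPKM in the next WT library.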

How the results depend on the processing

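The main limits are the 5 WT libraries, the absence of counts and the library sets, which hold the genotypes in unequal numbers. Over all genes, 1 was called, against 6 in the libraries with fewer genes, 19 in those with more, 2 with a replicate block and 1 to 3 with 1 library left out. The member count at an unadjusted p under 0.05 was 4. With the library set as a term it was 2, of which only *Eif2s2* was among the 4. It was 1 to 3 with 1 library left out. Without Homo 7 the 3 were all lower in Homo. The replicate numbers did not pair the samples (correlations of -0.05 to 0.03), and with the replicate block 3 members had such a p (1 higher, 2 lower), of the 4 genes *Eif2c2* alone (limma p = 0.0184). In the set with more genes the median of the eIF2 family was 0.33 and that of eIF3 0.52. That set holds WT 3, the lowest library in most eIF3 genes. The *Eif4ebp* median, over 2 genes of which *Eif4ebp1* is near the floor, was -1.54 in the set with fewer genes. It was 0.58 in that with more. Of 461 results for the 21 genes compared in full, 442 kept their direction and 19 changed it. No member was past the adjusted threshold in the main test (smallest adjusted p 0.899). Crossings of an unadjusted p of 0.05 were not counted among these results. In the set with fewer genes *Eif1* was at -0.13, *Eif2a* at 0.056 and *Eif4enif1* at 0.29. In the set with more, *Eif2s1* was at 0.23, *Eif2s3y* at 0.97, *Eif4e* at 0.18, *Eif4ebp1* at 0.87, *Eif4ebp2* at 0.30 and *Eif5a* at 0.048. *Eif2s3y* was at 0.14 with the set as a term and *Eif4enif1* at 0.058 with the replicate block. With 1 library left out, *Eif2s1* ran from -0.20 to 0.026, *Eif2s3y* from -0.19 to 0.22 and *Eif4ebp1* from -0.77 to 0.050. The cause of these changes was not tested.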

Other observations

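Among the pseudogene rows left out by name, *Eif5al3-ps*, by its name a pseudogene of the eIF5A family, was listed at 0, 10.7, 5.83, 13.3 and 13.8 FPKM in WT 1 to WT 5. In Homo it was at 0 in 6 of 7 libraries and at 4.64 FPKM in Homo 7. The difference on the log2(FPKM + 1) scale was -2.45 (SE 0.65, adjusted limma p = 0.666, exact permutation p = 0.0101, within library sets p = 0.0286). *Eif5a* itself was at 81.8 to 147.8 FPKM in the 12 libraries, and whether the rows share fragments was not tested. The row was singled out after its values were seen.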
